A study of Mus musculus with 2 samples.

Results

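The CC chemokines described here are the products of 10 mouse genes, *Ccl2*, *Ccl3*, *Ccl4*, *Ccl5*, *Ccl6*, *Ccl7*, *Ccl8*, *Ccl9*, *Ccl12* and *Ccl24*, chosen by their symbols among 33696 listed genes and followed across macrophages, monocytes, neutrophils, T cells, NK cells and tumor cells. The cells came from subcutaneous tumors of CT26, a mouse colon carcinoma line, grown in male BALB/c mice. The UT library holds cells of untreated tumors, and the BUP library holds cells of tumors treated with BUP-Gel, a hydrogel that carries the local anesthetic bupivacaine. Each library pools 3 tumors, sorted as live CD45+ and CD45- cells and mixed at 4 parts to 1 by the labels, so that each condition has 1 library, no replicate and no test between conditions. The study's methods give a different mixing ratio. An untreated tumor is also not a tumor given an empty gel. Values are counts of unique molecular identifiers (UMIs), in which each captured RNA molecule counts once. Levels are given in CPM, a gene's summed UMIs in a cell class scaled to 1000000 UMIs of the same class.

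Chemokines are small secreted proteins that bind G protein-coupled receptors on other cells and draw those cells along a gradient. CCL2, CCL7, CCL8 and CCL12 belong to the monocyte chemoattractant group, whose best known receptor is CCR2 on monocytes. CCL3, CCL4 and CCL5 draw T cells, NK cells and macrophages, and CCL3 and CCL5 bind CCR1. CCL6 and CCL9 are rodent chemokines that act on CCR1, and CCL24, or eotaxin-2, draws eosinophils through CCR3 and is a known marker of macrophages exposed to interleukin-4.

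Of the 14777 barcodes, 13939 passed the filters of over 100 UMIs and under 20% mitochondrial UMIs, 7163 from the UT library with a median of 8430 UMIs and 6776 from the BUP library with a median of 10420. The libraries had 76 barcodes in common. The chemokines and their receptors did not enter the clustering, and clusters were called "-like" by their marker RNA alone. The macrophage-like clusters were led by *Cxcl3* and *Thbs1* (1263 UT and 797 BUP cells), by the complement genes *C1qa*, *C1qb* and *C1qc* (1106 and 467), by *C1q* and cell cycle genes (243 and 62) and by interferon response genes (198 and 78). Tumor clusters were led by *Ogn* and *Aspn*, by *Nppb* and *Esm1*, or by cell cycle genes, and the male host's Y-linked genes were at 2.29 to 13.3 CPM there, against 127 and 128 CPM over the monocyte- and macrophage-like cells of UT and BUP. In the cycling tumor cluster 25.4% of cells had a *Ptprc* UMI and 21.1% had a doublet score in the top 6%. The 5 monocyte- and macrophage-like clusters held 3029 UT and 1502 BUP cells, and the 3 tumor clusters 1126 and 2431, numbers that the sort and the mixing also set.

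Of the 10 genes, 9 lie on chromosome 11 of GRCm39 and form 2 groups separated by 1409 kb. *Ccl2*, *Ccl7*, *Ccl12* and *Ccl8* follow each other on the plus strand from 81926397 to 82007625, and *Ccl5*, *Ccl9*, *Ccl6*, *Ccl3* and *Ccl4* follow from 83416602 to 83555509. *Ccl24* stands alone on chromosome 5, at 135598668 to 135601905 on the minus strand. All are protein-coding, and the files list them as ENSMUSG00000035385 (*Ccl2*), ENSMUSG00000000982 (*Ccl3*), ENSMUSG00000018930 (*Ccl4*), ENSMUSG00000035042 (*Ccl5*), ENSMUSG00000018927 (*Ccl6*), ENSMUSG00000035373 (*Ccl7*), ENSMUSG00000009185 (*Ccl8*), ENSMUSG00000019122 (*Ccl9*), ENSMUSG00000035352 (*Ccl12*) and ENSMUSG00000004814 (*Ccl24*). The encoded proteins have 91 to 148 residues, and the closest of the 45 pairs are CCL3 and CCL4, identical at 59.1% of aligned positions, followed by CCL7 and CCL12 at 54.7% and CCL8 and CCL12 at 51.4%. The median pair is identical at 29.3%. No stretch of 60 bases of these transcripts occurs in an annotated transcript of another gene, except for 1.36% of the stretches of *Ccl9*. Annotated long noncoding RNAs overlap *Ccl3*, *Ccl5*, *Ccl6* and *Ccl9* on the opposite strand, and whether counting used the strand is not given in the sources used here.

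The 250 bases before the start of the canonical transcript (GENCODE vM39) are shown for 4 genes whose levels are set against each other below, *Ccl3* and *Ccl4*, which appeared in the same cells, *Ccl5* of lymphocytes, and *Ccl8* of the *C1q* macrophages. They lie at chr11:83540192-83540441 (minus strand), chr11:83553133-83553382 (plus), chr11:83421346-83421595 (minus) and chr11:82005757-82006006 (plus), and each is written 5′ to 3′ along its gene. Capitals mark matches on either strand to TATAAA, the TATA box letters, to GAAANNGAA, the core of interferon-stimulated response elements, or to GGNNTTTCC, a kappaB core.
Ccl3: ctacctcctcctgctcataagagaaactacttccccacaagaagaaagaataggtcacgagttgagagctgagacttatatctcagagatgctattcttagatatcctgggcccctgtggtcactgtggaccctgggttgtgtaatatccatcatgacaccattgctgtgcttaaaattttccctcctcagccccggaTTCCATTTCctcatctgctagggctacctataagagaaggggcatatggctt
Ccl4: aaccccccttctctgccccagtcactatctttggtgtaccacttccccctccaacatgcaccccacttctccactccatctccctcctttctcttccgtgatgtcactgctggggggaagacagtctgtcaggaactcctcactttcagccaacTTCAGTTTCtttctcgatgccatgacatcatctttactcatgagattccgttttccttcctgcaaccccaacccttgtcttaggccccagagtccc
Ccl5: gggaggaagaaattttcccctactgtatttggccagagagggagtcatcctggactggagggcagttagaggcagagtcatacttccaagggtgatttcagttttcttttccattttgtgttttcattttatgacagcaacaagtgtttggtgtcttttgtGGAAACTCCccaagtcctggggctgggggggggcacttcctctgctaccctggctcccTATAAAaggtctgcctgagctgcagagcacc
Ccl8: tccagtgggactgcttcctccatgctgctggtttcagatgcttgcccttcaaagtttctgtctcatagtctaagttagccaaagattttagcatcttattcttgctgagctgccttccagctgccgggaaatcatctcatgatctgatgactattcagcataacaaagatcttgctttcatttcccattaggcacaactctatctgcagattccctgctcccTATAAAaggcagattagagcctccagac
Of the 4 windows shown, those of *Ccl5* and *Ccl8* held TATAAA, within 31 bases of the start, and 11.9% of 21770 protein-coding promoters of the same length held these letters. The windows of the other members are not described for this motif. The interferon response letters were in *Ccl3*, 52 bases before the start, in *Ccl4*, 96 bases before it, and in *Ccl12*, and in 7.55% of all promoters. The kappaB letters were in *Ccl2*, *Ccl5* and *Ccl9*, and in 4.86% of all promoters. A match is a description of letters and not of a bound site.

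The chemokines sorted into a few patterns of cells. *Ccl2*, *Ccl6*, *Ccl7* and *Ccl9* were spread over all macrophage-like clusters, *Ccl8* and *Ccl12* over those with *C1q*, and *Ccl24* was highest in the *Cxcl3* and *Thbs1* cluster. *Ccl3* and *Ccl4* were shared by neutrophils, macrophages and lymphocytes, and *Ccl5* was the lymphocyte chemokine, although its highest level was in migratory dendritic-like cells. In the UT library the monocyte- and macrophage-like clusters held 79.5% of all *Ccl2* UMIs, 81.4% of *Ccl6*, 83.6% of *Ccl7*, 84.6% of *Ccl12* and 85.6% of *Ccl24*, against 57.0% of *Ccl3* and 17.6% of *Ccl5*. In the BUP library these shares were lower for every member, from 69.1% for *Ccl9* to 10.9% for *Ccl5*. These shares move with the number of macrophages in each mixture. A cluster that mixes T and macrophage genes, in which 38.4% of cells had a doublet score in the top 6%, held 6.97% to 15.7% of a member's UMIs in the UT library and 14.1% to 22.8% in the BUP library.

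**Figure D1:**
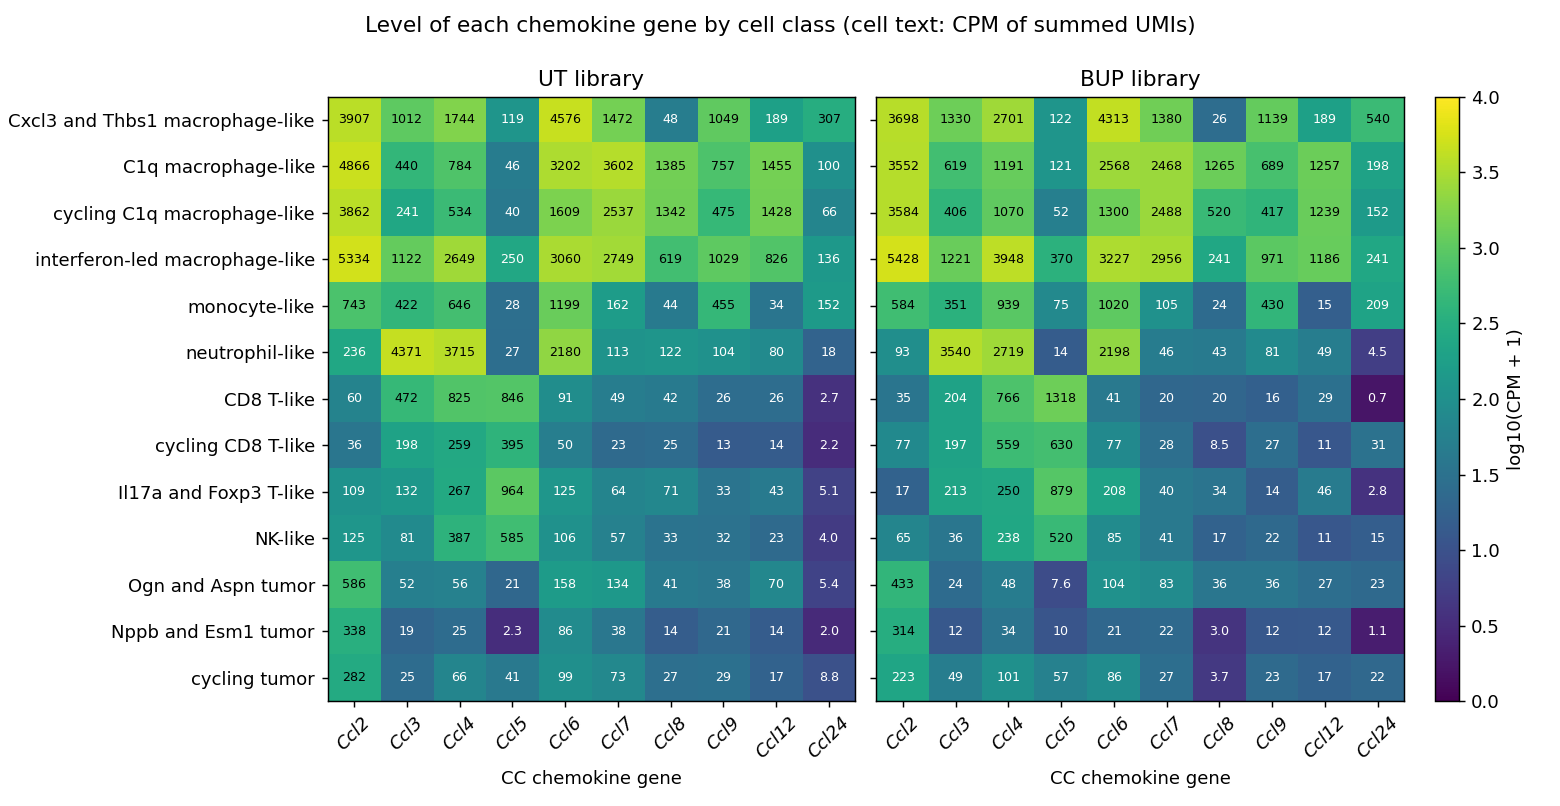
Level of the 10 chemokine genes (columns) in 13 cell classes (rows) of the UT and BUP libraries, as CPM of summed UMIs printed in each field and colored by log10(CPM + 1). *Ccl3* peaks in neutrophil-like cells of both libraries, *Ccl4* in neutrophil-like cells of UT and interferon-led cells of BUP, *Ccl8* and *Ccl12* in the *C1q* clusters, and *Ccl5* in T-like cells.

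**Figure D2:**
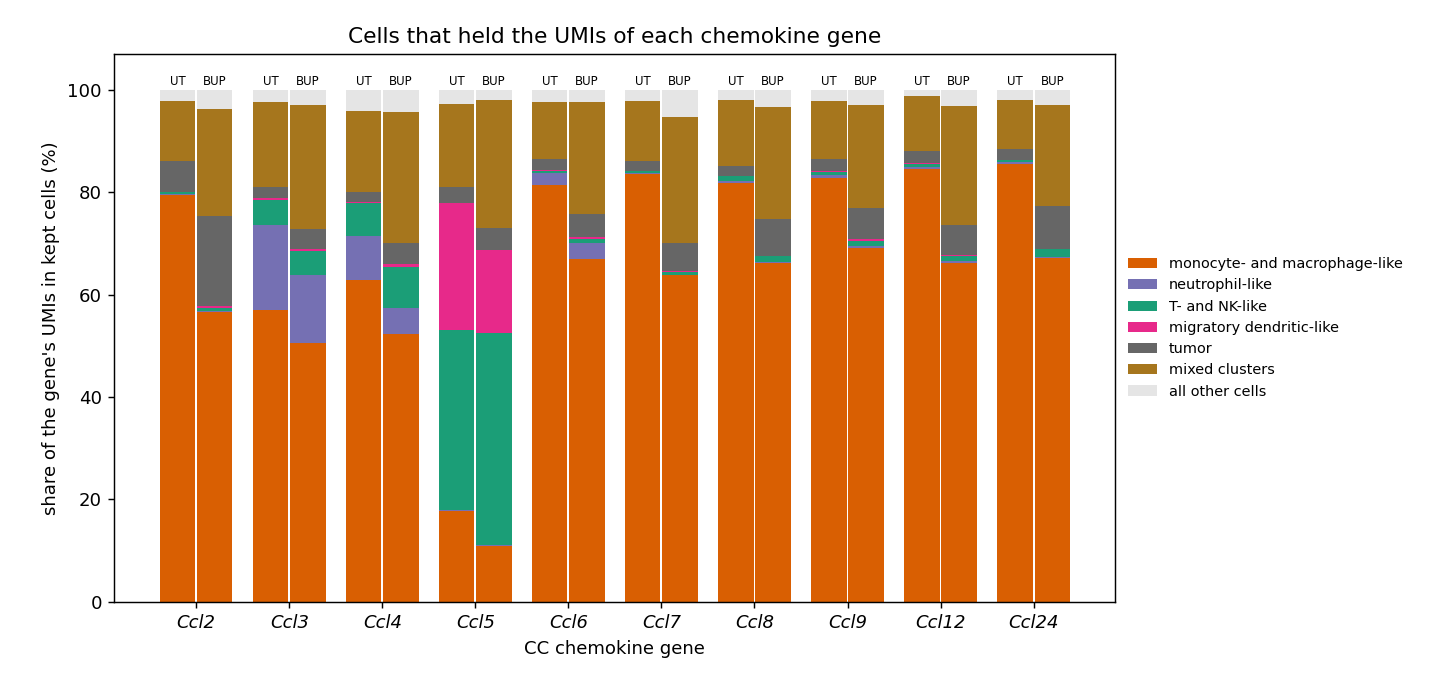
Share of each chemokine gene's UMIs (%) held by groups of cell clusters, with the UT library as the left and the BUP library as the right bar of each pair. Monocyte- and macrophage-like clusters held 79.5% of UT and 56.7% of BUP *Ccl2* UMIs, and T- and NK-like clusters 35.2% and 41.5% of *Ccl5* UMIs.

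*Ccl2*, the monocyte chemoattractant MCP-1, had its highest level in interferon-led macrophage-like cells. They had 5334 CPM of *Ccl2* in UT, with a 95% interval of counting error of 5228 to 5442, and 5428 CPM in BUP, with an interval of 5268 to 5592. A UMI was seen in 92.4% and 89.7% of them. In the *C1q* cluster it was at 4866 CPM (4830 to 4902) and 3552 CPM (3504 to 3600), or a log2 ratio of BUP over UT of -0.45 (-0.48 to -0.43). In the *Cxcl3* and *Thbs1* cluster it was at 3907 and 3698 CPM, or a log2 ratio of -0.08. The interferon-led cluster led the order in both libraries, and the *C1q* cluster was the next highest in UT. In BUP the other macrophage-like clusters lay between 3552 and 3698 CPM, and the intervals of the *C1q* and cycling *C1q* clusters overlapped. All intervals cover counting error and leave out differences between tumors and library preparations. Monocyte-like cells, at 743 and 584 CPM, held far less *Ccl2* than any macrophage-like cluster.

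*Ccl2* was also the member with the highest level in each tumor cluster, in both libraries. It was at 586 CPM in UT cells and 433 CPM in BUP in the *Ogn* and *Aspn* cluster, at 338 and 314 CPM in the *Nppb* and *Esm1* cluster and at 282 and 223 CPM in the cycling one. A UMI was seen in 46.5% and 33.99% of the *Ogn* and *Aspn* cells, or 22.7% and 18.6% after each cell was thinned to 2000 UMIs. In CD8 T-like cells, the background for this gene, the thinned shares were 10.9% and 3.33%, and the levels 60.3 and 34.9 CPM. The tumor levels lay above those of CD8 T-like cells in both libraries. Erythrocyte-like cells, which should make no *Ccl2*, had it at 271 CPM (193 to 371) in UT and 88.6 CPM (47.2 to 152) in BUP. Against these cells all 3 tumor clusters were higher in BUP, but in UT only the *Ogn* and *Aspn* cluster was, since the levels of the other two lay within the erythrocyte interval. The company of *Ccl2* differed as well, since 11.1 UMIs of *Ccl7* came with 100 of *Ccl2* in the UT *Nppb* and *Esm1* cluster and 7.16 in the BUP one, against 37.7 and 37.3 in the *Cxcl3* and *Thbs1* macrophages and 74.0 and 69.5 in the *C1q* macrophages. The ratio in this tumor cluster was thus below that in each macrophage-like cluster. In *Ogn* and *Aspn* cells 971 UMIs of *Ccl7* stood beside 4251 of *Ccl2* in UT, and 1865 beside 9685 in BUP. Cycling tumor cells had 502 beside 1951 and 200 beside 1649, and monocyte-like cells 188 beside 863 and 56 beside 311. The source of the *Ccl2* UMIs in the tumor clusters was not tested. In the *Ogn* and *Aspn* cluster, 31.3% of the UT and 15.7% of the BUP *Ccl2* UMIs lay in 5 cells, so that the level was uneven among cells.

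*Ccl7*, or MCP-3, lies 8.25 kb from *Ccl2* and had the profile most like it, with a Pearson correlation of 0.90 over 38 points, the log2 CPM of 19 classes in each of the 2 libraries. These points share libraries, and the value is a description. *Ccl7* was at 3602 CPM (3571 to 3633) in UT cells and 2468 CPM (2429 to 2509) in BUP in the *C1q* cluster, a log2 ratio of -0.55 (-0.57 to -0.52), the lowest of any member in that cluster. In the interferon-led cluster it was at 2749 and 2956 CPM, and in the *Cxcl3* and *Thbs1* cluster at 1472 and 1380 CPM. Relative to *Ccl2*, *Ccl7* was therefore a gene of the *C1q* clusters. *Ccl2* and *Ccl7* also shared cells. In the UT *Cxcl3* and *Thbs1* cluster thinned to 2000 UMIs, 32.7% of cells held both, against 24.3% if they were independent, and their counts correlated across cells with a Spearman rho of 0.60. In the *C1q* cluster rho was 0.72 in UT and 0.69 in BUP, the highest values of the 9 pairs examined in that cluster.

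The highest *Ccl7* level in the tumors was in mast-like cells, at 7170 CPM (6602 to 7773) in UT cells and 5909 CPM (5353 to 6508) in BUP. These were 35 and 34 shallow cells with medians of 1638 and 905 UMIs. *Ccl7* was seen in 88.6% and 76.5% of them, and *Ccl2*, at 3719 and 2647 CPM, in 77.1% and 79.4%. With 193 and 223 UMIs of *Ccl7* per 100 of *Ccl2*, mast-like cells stood apart from each macrophage-like cluster, where *Ccl7* stayed below *Ccl2*. Fibroblast-like cells, 15 in UT and 64 in BUP, had *Ccl7* at 394 and 486 CPM and *Ccl2* at 247 and 706 CPM.

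*Ccl12* and *Ccl8*, known as MCP-5 and MCP-2, were genes of the *C1q* macrophages. *Ccl12* was at 1455 CPM (1435 to 1474) in UT cells and 1257 CPM (1229 to 1286) in BUP in the *C1q* cluster, and at 1428 and 1239 CPM in its cycling counterpart. In the *Cxcl3* and *Thbs1* cluster it was at 189 CPM in both libraries. In the interferon-led cluster *Ccl12* had the highest ratio of the monocyte chemoattractant group, at 826 CPM (785 to 869) against 1186 CPM (1112 to 1264), or a log2 ratio of 0.52 (0.40 to 0.64). There the 5 cells with most *Ccl12* held 32.6% and 58.7% of its UMIs, and the ratio ranged from -0.09 to 0.83 over the other settings tried, so that its direction depended on them. The genes with the profile closest to *Ccl12* were *Ms4a7*, *C1qb* and *C1qc*, with correlations of 0.95, 0.92 and 0.91.

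*Ccl8* differed widely among macrophage clusters. In the *C1q* cluster it was at 1385 CPM (1366 to 1404) in UT cells and 1265 CPM (1237 to 1294) in BUP, but in the *Cxcl3* and *Thbs1* cluster at 48.5 and 25.6 CPM. *Ccl8* was present in 65.7% and 56.3% of *C1q* cells. The log2 ratio of the *C1q* cluster was -0.13 (-0.17 to -0.09), with -0.28 to 0.04 over the settings tried, whereas *Ccl8* was lower in BUP in the clusters beside it. In the cycling *C1q* cluster *Ccl8* was at 1342 CPM (1308 to 1376) in UT cells and 520 CPM (476 to 568) in BUP, a log2 ratio of -1.37 (-1.50 to -1.24). In the interferon-led cluster it was at 619 and 241 CPM, or a log2 ratio of -1.36 (-1.59 to -1.14). Over the settings tried, these ratios ranged from -2.10 to -1.31 and from -2.76 to -0.91, and stayed beyond 1.5-fold. The cycling BUP cluster had 62 cells, of which 5 held 54.0% of its *Ccl8*, and the interferon-led BUP cluster had 78 cells, of which 5 held 81.8%. After thinning, 55.4% of cycling *C1q* cells had *Ccl8* in UT against 31.1% in BUP, and 16.1% against 11.4% of interferon-led cells. *Ccl8* and *Ccl12* were found together in 27.4% of thinned UT *C1q* cells against 23.3% if independent, with a rho of 0.18, below the 0.72 of *Ccl2* and *Ccl7*. *Cbr2*, *C1qb* and *Ms4a7* had the profiles closest to *Ccl8*, at 0.83, 0.82 and 0.81.

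*Ccl24* was found in fewer cells, and was higher in BUP in each of the 5 monocyte- and macrophage-like clusters. In the *Cxcl3* and *Thbs1* cluster, which had most of it, *Ccl24* was at 307 CPM (296 to 318) in UT cells and 540 CPM (523 to 557) in BUP, a log2 ratio of 0.82 (0.75 to 0.88) and the highest of any member there. It was seen in 36.8% and 43.8% of these cells, and in 22.9% and 27.5% after thinning. In the *C1q* cluster it was at 99.9 CPM (94.8 to 105) and 198 CPM (187 to 210), or a log2 ratio of 0.99 (0.87 to 1.10). Both differences lay beyond 1.5-fold in all settings tried, which gave 0.76 to 0.95 and 0.67 to 1.15. In interferon-led cells *Ccl24* was at 136 and 241 CPM, and in monocyte-like cells at 152 and 209 CPM, where the sign depended on the setting (-0.10 to 0.58). In cycling *C1q* cells it was at 66.1 and 152 CPM, or a log2 ratio of 1.21 that rested on single cells, since without the 5 cells of each library with most *Ccl24* it was -0.09. In CD8 T-like cells *Ccl24* had 6 UT and 2 BUP UMIs, in 1.30% and 0.416% of cells. Cycling CD8 T-like cells had 5 and 99 UMIs, of which 5 BUP cells held 99.0%. The profiles closest to it were those of *Cd93*, *Slc7a8* and *F10*, at 0.88, 0.86 and 0.85. *Ccl8* and *Ccl24* showed no coupling across cells, with a rho of 0.03 in UT and -0.01 in BUP *C1q* cells.

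*Ccl6* and *Ccl9*, rodent CCR1 ligands that lie 5.55 kb apart, differed little between the libraries in the cells that held most of them. *Ccl6* was at 4576 CPM (4535 to 4617) in UT cells and 4313 CPM (4265 to 4361) in BUP in the *Cxcl3* and *Thbs1* cluster, where 95.6% and 94.2% of cells had a UMI. In the *C1q* cluster it was at 3202 and 2568 CPM, or a log2 ratio of -0.32 (-0.34 to -0.29). In neutrophil-like cells *Ccl6* was at 2180 CPM (2102 to 2260) and 2198 CPM (2111 to 2287), or a log2 ratio of 0.01 (-0.07 to 0.09), so that a difference was not detectable. *Ccl9* was at 1049 and 1139 CPM in the *Cxcl3* and *Thbs1* cluster, 1029 and 971 CPM in the interferon-led one and 757 and 689 CPM in the *C1q* one. All 3 log2 ratios of *Ccl9* lay between -0.14 and 0.12. Unlike *Ccl6*, *Ccl9* was scarce in neutrophil-like cells, at 104 and 81.4 CPM, or 4.77 and 3.70 UMIs per 100 of *Ccl6*, against 22.9 and 26.4 in the *Cxcl3* and *Thbs1* cluster. The genes closest to *Ccl9* were *Fcgr1*, *Fcgr2b* and *Lyz2*, and those closest to *Ccl6* were *Pilra*, *Fcgr2b* and *Pira12*, all at 0.95 or 0.96. *Ccl6* and *Ccl9* correlated across cells with a rho of 0.56 in UT and 0.49 in BUP in the *Cxcl3* and *Thbs1* cluster, and of -0.03 and -0.08 in neutrophil-like cells.

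*Ccl3* and *Ccl4*, or MIP-1 alpha and MIP-1 beta, had their highest UT level in neutrophil-like cells. *Ccl3* was at 4371 CPM (4261 to 4483) in UT cells and 3540 CPM (3430 to 3653) in BUP there, a log2 ratio of -0.30 (-0.36 to -0.25). *Ccl4* was at 3715 CPM (3613 to 3818) and 2719 CPM (2623 to 2818), or a log2 ratio of -0.45 (-0.52 to -0.38). Neutrophil-like cells had medians of 1887 and 2129 UMIs, and the shares of cells with *Ccl3* were 59.7% and 67.2%, so that a lower level stood beside a higher share of cells with the gene. In each macrophage-like cluster both genes were higher in BUP, although for *Ccl3* not in every setting tried. In the *Cxcl3* and *Thbs1* cluster *Ccl4* was at 1744 CPM (1719 to 1770) in UT cells and 2701 CPM (2663 to 2739) in BUP, a log2 ratio of 0.63 (0.60 to 0.66), with 0.62 to 0.70 over the settings tried. In the *C1q* cluster it was at 784 and 1191 CPM, or a log2 ratio of 0.60 (0.56 to 0.65), with 0.55 to 0.74 over the settings. Interferon-led cells had *Ccl4* at 2649 and 3948 CPM, or a log2 ratio of 0.58 (0.51 to 0.64), with 0.21 to 0.69. Among these, 5 of the 78 BUP cells held 27.4% of its UMIs. *Ccl4* was thus highest in neutrophil-like cells in UT and in interferon-led cells in BUP. *Ccl3* was higher in BUP by less. It was at 1012 and 1330 CPM in the *Cxcl3* and *Thbs1* cluster, a log2 ratio of 0.39 (0.35 to 0.43). In the *C1q* cluster it was at 440 and 619 CPM, or 0.49 (0.43 to 0.55), and in cycling *C1q* cells the log2 ratio was 0.75. In interferon-led cells the *Ccl3* ratio was 0.12 (0.01 to 0.23), and its sign depended on the setting (-0.02 to 0.24). In monocyte-like cells it was -0.26 (-0.51 to -0.02).

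Of the members, *Ccl3* and *Ccl4* had the most similar profiles, with a correlation of 0.96 over the 38 points, and *Ccrl2*, which encodes an atypical receptor of neutrophils and macrophages, came next for both at 0.94 and 0.93. In the UT *Cxcl3* and *Thbs1* cluster 42.2% of thinned cells held both, against 34.9% if independent. A *Ccl4* UMI was seen in 74.2% of the cells with *Ccl3* and in 44.3% of the cells without it. The proportion of the genes depended on the cell. For 100 UMIs of *Ccl3* there were 85.0 of *Ccl4* in UT and 76.8 in BUP neutrophil-like cells, 172 and 203 in *Cxcl3* and *Thbs1* macrophages, 236 and 323 in interferon-led ones, and 478 and 655 in NK-like cells. In CD8 T-like cells it was 175 in UT and 376 in BUP, the widest difference between the libraries among these classes. The share of *Ccl4* among the UMIs of this pair was higher in BUP in each macrophage-, monocyte-, CD8 T- and NK-like class and lower in neutrophil-like and in *Il17a* and *Foxp3* T-like cells.

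*Ccl5*, or RANTES, a chemokine of activated T and NK cells, was higher in BUP in both CD8 T-like clusters. In the larger one it was at 846 CPM (808 to 885) in UT cells and 1318 CPM (1278 to 1360) in BUP, a log2 ratio of 0.64 (0.56 to 0.72). Of its 308 UT cells 52.3% had a *Ccl5* UMI, as did 76.5% of its 481 BUP cells, or 37.2% and 61.6% after thinning, against 1.87% and 0.937% in the *Ogn* and *Aspn* tumor cluster, the background for this gene. In cycling CD8 T-like cells *Ccl5* was at 395 and 630 CPM, or a log2 ratio of 0.67 (0.56 to 0.79). The ratios ranged from 0.61 to 0.97 and from 0.53 to 0.77 over the settings tried. The 5 UT cells with most *Ccl5* held 29.8% of it in the larger cluster, and the 5 BUP cells held 11.2%, so that it was spread over more cells in BUP. In NK-like cells *Ccl5* was at 585 and 520 CPM, with a UMI in 33.6% and 33.3% of cells, and in *Il17a* and *Foxp3* T-like cells at 964 and 879 CPM. Whether CD8 T-like cells differed from the other lymphocytes in this ratio could not be tested with 1 library a condition.

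Outside lymphocytes, *Ccl5* was at 6443 CPM (6235 to 6656) in UT cells and 5240 CPM (5052 to 5433) in BUP in 74 and 66 migratory dendritic-like cells, a log2 ratio of -0.30 (-0.37 to -0.23). These few cells held 24.8% of all UT and 16.2% of all BUP *Ccl5* UMIs. In the *C1q* macrophages *Ccl5* was at 46.3 CPM (42.9 to 49.9) and 121 CPM (112 to 130), or a log2 ratio of 1.38 (1.23 to 1.54) that stayed between 0.96 and 1.79 over the settings tried. It was seen in 4.99% and 9.80% of thinned cells there, and 46.5% of the BUP UMIs lay in 5 cells. In the *Cxcl3* and *Thbs1* cluster it was at 119 and 122 CPM. The genes with the profile closest to *Ccl5* were *Adora2a*, *Stat4* and *Tmem123*, at 0.89, 0.88 and 0.86.

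CD8 T-like cells also held *Ccl3* and *Ccl4*, and their ratios differed from that of *Ccl5*. *Ccl3* was at 472 CPM (444 to 502) in UT cells and 204 CPM (188 to 221) in BUP in the larger cluster, a log2 ratio of -1.21 (-1.36 to -1.07) that ranged from -1.26 to -0.87. The gene was seen in 25.0% and 19.8% of cells, and 43.3% and 44.7% of its UMIs lay in 5 cells. *Ccl4* was at 825 and 766 CPM, or a log2 ratio of -0.11 (-0.20 to -0.02). In cycling CD8 T-like cells *Ccl3* was at 198 and 197 CPM, while *Ccl4* was at 259 CPM (239 to 281) and 559 CPM (533 to 586), or a log2 ratio of 1.11 (0.97 to 1.24). Cycling cells with a *Ccl4* UMI made up 36.5% of the UT and 53.7% of the BUP cluster. NK-like cells had lower levels in BUP, at 387 and 238 CPM for *Ccl4* and 81.0 and 36.4 CPM for *Ccl3*. *Ccl4* and *Ccl5* were coupled across cells in lymphocytes, with a rho of 0.45 in UT and 0.29 in BUP CD8 T-like cells and 0.53 and 0.48 in NK-like cells, against 0.04 and 0.17 in *C1q* macrophages.

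**Figure D3:**
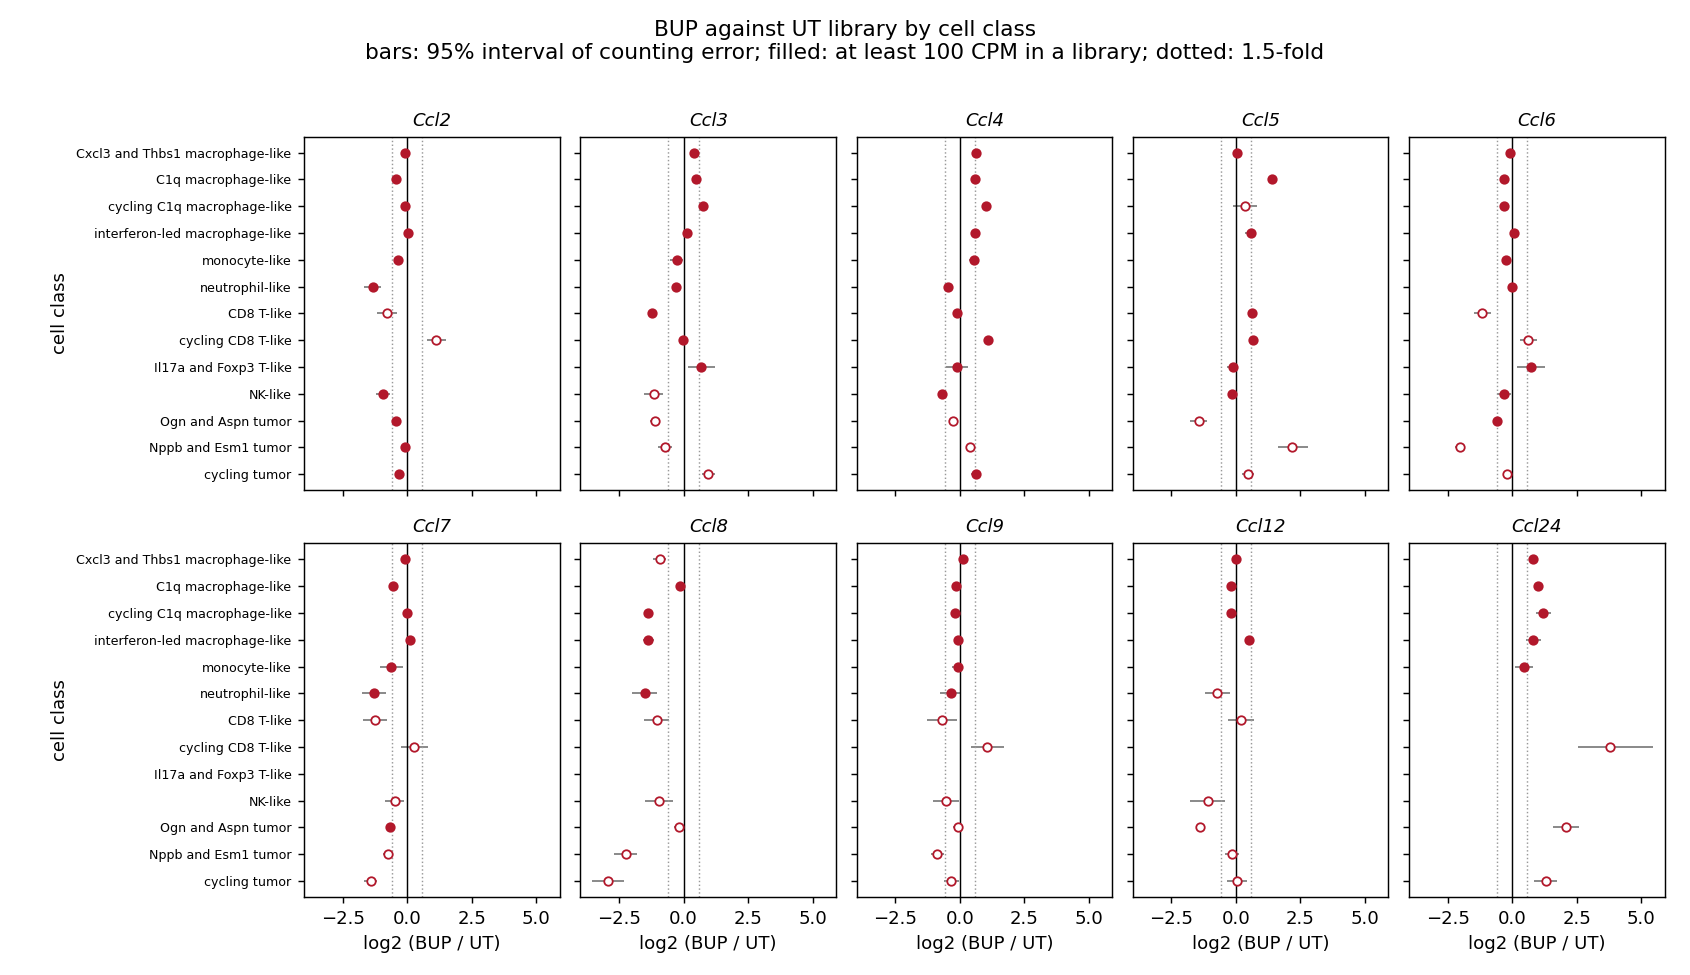
Log2 ratio of BUP over UT (horizontal axis) for each chemokine gene (panels) and cell class (rows), among classes with at least 100 UMIs of the gene over both libraries. Bars are 95% intervals of counting error, filled points reach 100 CPM in a library, and dotted lines mark 1.5-fold. *Ccl24* and *Ccl4* lie to the right of 0 in the macrophage-like rows, and *Ccl8* lies to the left.

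Read as counts, a member was called where its level differed at least 1.5-fold between the libraries, among genes with at least 100 UMIs in the class. In the *Cxcl3* and *Thbs1* macrophages 2 of the 10 members were higher in BUP (*Ccl4* and *Ccl24*), against 1.21% of the 8754 genes tested. There 1 was lower (*Ccl8*), against 2.03%, a call absent with 30 components and with the members kept among the variable genes. In the *C1q* macrophages 3 of 10 were higher (*Ccl4*, *Ccl5* and *Ccl24*), against 2.87% of 9571 genes, and 0 were lower, against 2.04%. The median log2 ratio of the members was 0.02 in the former and -0.13 in the latter, and that of all genes tested was -0.07 and -0.03. In the cycling *C1q* cluster 3 of 10 were higher (*Ccl3*, *Ccl4* and *Ccl24*), against 2.18% of 6868 genes. Over the settings tried the ratios of these 3 reached down to 0.30, 0.53 and -0.09, all under 1.5-fold. In the same cluster, which had 62 BUP cells, *Ccl8* was lower, against 6% of the genes. In the interferon-led cluster *Ccl24* was higher, against 1.81% of 3803 genes, and *Ccl8* was lower, against 2.71%. This *Ccl24* ratio reached down to 0.50 over the settings tried, under 1.5-fold. In that cluster 5 cells held 50% of the UT and 63.0% of the BUP *Ccl24* UMIs. In monocyte-like cells 1 of 7 was lower (*Ccl7*), against 2.82% of 2868 genes, and 0 were higher, against 3%. The *Ccl7* call rested on 188 UT and 56 BUP UMIs, of which 5 cells held 63.8% and 78.6%.

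Outside macrophages the direction of the calls differed between classes, with most of them lower in BUP in 5 classes. In neutrophil-like cells 4 of 8 members were lower (*Ccl2*, *Ccl7*, *Ccl8* and *Ccl12*), against 10.2% of 2573 genes, and 0 were higher, against 1.52%. In CD8 T-like cells 6 of 9 were lower (*Ccl2*, *Ccl3*, *Ccl6*, *Ccl7*, *Ccl8* and *Ccl9*), against 4.37% of 6360 genes, and 1 was higher (*Ccl5*), against 1.21%. In NK-like cells 5 of 9 were lower (*Ccl2*, *Ccl3*, *Ccl4*, *Ccl8* and *Ccl12*), against 4.04% of 6602 genes, and 0 were higher, against 0.576%. In the *Ogn* and *Aspn* tumor cluster 5 of 10 were lower (*Ccl3*, *Ccl5*, *Ccl6*, *Ccl7* and *Ccl12*), against 2.9% of 10536 genes, and 1 was higher (*Ccl24*), against 0.56%. Of these, the ratio of *Ccl12* turned from -1.39 to 0.62 with 30 components in the clustering, that of *Ccl5* from -1.44 to 1.24 without high doublet scores and that of *Ccl24* from 2.07 to -0.29 without them. The number lower ranged down to 1, with 30 components. In the *Nppb* and *Esm1* cluster 5 of 9 were lower (*Ccl3*, *Ccl6*, *Ccl7*, *Ccl8* and *Ccl9*), against 2.08% of 10505 genes, and 1 was higher (*Ccl5*), against 0.628%. The members' median log2 ratio was -0.59 in neutrophil-like, -0.79 in CD8 T-like, -0.70 in NK-like and -0.52 in *Ogn* and *Aspn* cells, with all genes at -0.08 to -0.05. With cells thinned to 2000 UMIs the members called lower were 1 in neutrophil-like, 1 in CD8 T-like, 2 in NK-like and 3 in *Ogn* and *Aspn* cells.

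The calls in cycling CD8 T-like cells went the other way. There 6 of 8 members were higher in BUP (*Ccl2*, *Ccl4*, *Ccl5*, *Ccl6*, *Ccl9* and *Ccl24*), against 2.12% of 6746 genes, and 0 were lower, against 3.25%, with a median log2 ratio of 0.87. The ratios of *Ccl2*, *Ccl6* and *Ccl9* fell to -0.37, -1.05 and -0.11 without high doublet scores. In *Il17a* and *Foxp3* T-like cells 2 of 4 were higher (*Ccl3* and *Ccl6*), against 3.31% of 1208 genes, and 0 were lower, against 7.7%, but both ratios turned negative with 30 components, to -0.44 and -0.94. In the cycling tumor cluster 3 of 10 were higher (*Ccl3*, *Ccl4* and *Ccl24*), against 1.64% of 9251 genes, and 2 were lower (*Ccl7* and *Ccl8*), against 2.32%. Without the 5 cells of each library with most of a member, the ratios of *Ccl3*, *Ccl4* and *Ccl24* there were -0.0414, -0.21 and -3.11.

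Most of the lower calls outside macrophages were in members with far higher levels in macrophages, and macrophage RNA was itself higher in the same UT cells. *C1qa*, *C1qb*, *C1qc*, *Apoe* and *Ms4a7*, summed as a macrophage list, were at 814 CPM in UT cells and 430 CPM in BUP neutrophil-like cells, 335 and 178 CPM in CD8 T-like cells, 262 and 214 CPM in NK-like cells, and 398 and 215 CPM in the *Ogn* and *Aspn* cluster. In cycling CD8 T-like cells the list was higher in BUP, at 113 and 158 CPM. In *Nppb* and *Esm1* cells it was at 168 and 71.0 CPM, where 1 member was called higher and 5 lower. In the cycling tumor cluster the list was at 539 and 258 CPM, where 3 members were called higher and 2 lower. *Il17a* and *Foxp3* T-like cells had it at 483 and 432 CPM, with 2 members called higher and 0 lower. In erythrocyte-like cells, which should make none of them, the list was at 849 and 184 CPM, *Ccl2* at 271 and 88.6 CPM and *Ccl6* at 327 and 34.1 CPM, from 39 and 13 and from 47 and 5 UMIs. In neutrophil-like cells *Ccl2* was at 236 and 93.2 CPM and *Ccl8* at 122 and 43.4 CPM, while erythrocyte-like cells had *Ccl8* at 104 and 95.4 CPM. The part of macrophage RNA in these lower calls was not tested. *Ccl3* and *Ccl4* in neutrophil-like cells stood far above such a level, since erythrocyte-like cells held 2 and 1 UMIs of *Ccl3* and 8 and 4 of *Ccl4*. In the macrophage-like clusters the list differed little, at 2045 and 2080 CPM in the *Cxcl3* and *Thbs1* cluster and 17060 and 17229 CPM in the *C1q* cluster, beside the differences in *Ccl4* and *Ccl24*.

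**Figure D4:**
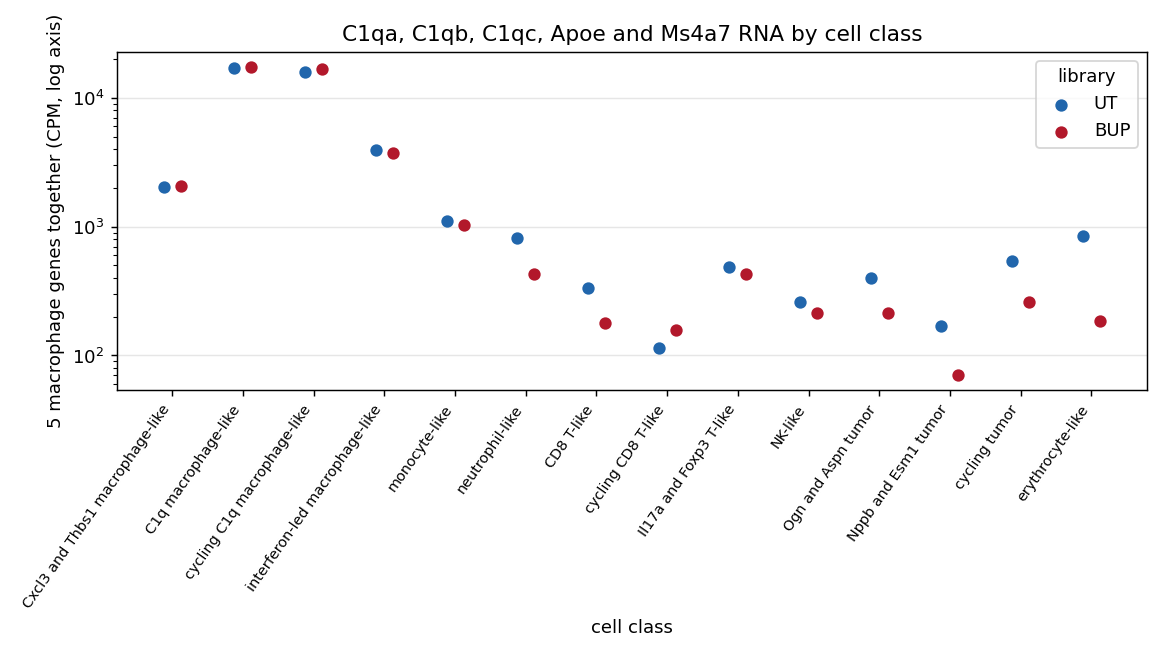
Summed level of *C1qa*, *C1qb*, *C1qc*, *Apoe* and *Ms4a7* (CPM, log axis) in 13 cell classes and in erythrocyte-like cells, for the UT library in blue and the BUP library in red. The libraries lie together in the macrophage-like classes and apart in neutrophil-like cells (814 and 430 CPM) and erythrocyte-like cells (849 and 184 CPM).

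UMIs of chemokine receptors were found in myeloid, lymphocyte and tumor clusters. Of 16 listed receptors, 6 had at least 100 UMIs in the *Cxcl3* and *Thbs1* macrophages, 6 in the *C1q* macrophages and 2 in neutrophil-like cells. CD8 T-like cells had 6, NK-like cells 4 and *Ogn* and *Aspn* tumor cells 5. In this order, 2, 1, 0, 0, 0 and 0 were at least 1.5-fold higher in BUP, with 0, 0, 0, 2, 0 and 2 lower. Cycling tumor cells had 0 higher and 4 lower of 4, and *Nppb* and *Esm1* cells 0 and 3 of 4. *Il17a* and *Foxp3* T-like cells had 1 and 2 of 3, and cycling CD8 T-like cells 0 and 1 of 6. Cycling *C1q*, interferon-led and monocyte-like cells had 0 higher and 0 lower of 5, 4 and 5. The shares over all genes are those given above for each class. *Ccr1*, the receptor of CCL3, CCL5, CCL6 and CCL9, was highest in neutrophil-like cells, at 1158 CPM in UT cells and 1043 CPM in BUP. *Ccr2*, the receptor of CCL2, CCL7 and CCL12, was at 633 and 504 CPM in monocyte-like cells, 555 and 479 CPM in the *Cxcl3* and *Thbs1* cluster, 341 and 352 CPM in NK-like cells and 175 and 209 CPM in the *C1q* cluster. Among these classes *Ccr2* was thus lowest in the *C1q* cluster, which of them had the most *Ccl7*, *Ccl8* and *Ccl12*. *Ccr3*, the receptor of CCL24, reached 11.2 CPM at most in any class. *Ccrl2* was at 5461 and 5169 CPM in neutrophil-like cells.

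Several other CC chemokines were highest in other cells. Of 10 listed, 6 stayed under 50 CPM in every named class. In the *Cxcl3* and *Thbs1* macrophages 0 reached 100 UMIs, and in the *C1q* macrophages 1 did. In the *Ogn* and *Aspn*, the *Nppb* and *Esm1* and the cycling tumor clusters 1, 1 and 2 did. *Ccl1* was found in lymphocytes, at most at 79.7 CPM in BUP *Il17a* and *Foxp3* T-like cells, from 28 UMIs against 0 in UT. *Ccl22* and *Ccl17*, ligands of CCR4, were at 1757 and 1379 CPM and at 606 and 305 CPM in migratory dendritic-like cells, beside *Ccl5* and the receptor *Ccr7* at 4186 and 3720 CPM. *Ccl11*, or eotaxin, was at 82.3 CPM in UT cells and 344 CPM in BUP fibroblast-like cells. Of 21 genes known to regulate these chemokines or to respond with them, 16 had at least 100 UMIs in the *Cxcl3* and *Thbs1* cluster and 17 in the *C1q* cluster, with 1 and 3 at least 1.5-fold higher in BUP and 0 lower. In CD8 T-like cells 1 of 18 was higher and 3 were lower, in the *Ogn* and *Aspn* cluster 0 and 3 of 16, in neutrophil-like cells 0 and 1 of 13, and in NK-like cells 0 and 1 of 17, with the shares over all genes as given above for each class. *Nfkbia*, an inhibitor of NF-kappaB that is itself induced by it, was at 1162 and 1778 CPM in the *C1q* macrophages, a log2 ratio of 0.61, and *Il1b*, which encodes interleukin-1 beta, at 693 and 1216 CPM, 0.81. In the same cells *Mrc1*, a gene of interleukin-4-exposed macrophages as *Ccl24* is, was at 1328 and 900 CPM, or a log2 ratio of -0.56, the opposite direction to *Ccl24*. *Irf7* and *Isg15*, interferon response genes, had levels of 1456 and 1185 CPM and of 2194 and 2509 CPM among interferon-led cells. *Ifng*, which encodes interferon gamma, was at 329 and 333 CPM in CD8 T-like cells, beside the higher *Ccl5* of the BUP library.

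Counted over whole libraries, the members reflect both levels and cell numbers. *Ccl8* was at 413 CPM of the UT and 142 CPM of the BUP library, *Ccl7* at 1223 and 519 CPM, *Ccl12* at 445 and 186 CPM and *Ccl2* at 2128 and 1109 CPM. *Ccl24*, at 76.2 and 92.6 CPM, and *Ccl5*, at 177 and 204 CPM, were higher in BUP, and *Ccl4* was at 724 and 672 CPM. The monocyte chemoattractant group was thus lower in the BUP mixture as a whole, where macrophages were fewer. Within the *Cxcl3* and *Thbs1* macrophages the log2 ratios of *Ccl2*, *Ccl7* and *Ccl12* lay between -0.09 and 0. That of *Ccl8* was -0.92, from 48.5 and 25.6 CPM, under the 104 and 95.4 CPM of erythrocyte-like cells. Within the *C1q* macrophages the ratios of *Ccl2*, *Ccl7*, *Ccl12* and *Ccl8* were -0.45, -0.55, -0.21 and -0.13. The 3 tumors pooled in a library cannot be told apart.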

How the data were processed

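Single-cell RNA was captured with a 10x Genomics 5′ v2 kit. The deposited values are UMI counts per gene and barcode, made by the authors on GRCm39, and not normalized; the submitters' processing notes name Cell Ranger 8.0.1 and Seurat 5.0.1. Cells were grouped by condition from the sample labels.

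Counts were clustered in Seurat 5.3.0 (R 4.3.3) on 20 principal components of 2000 variable genes, with the resolution set to 0.5, over all cells and again over the clusters where *Ptprc* was seen in 30% of cells or more. The members, other CC chemokines and their receptors were left out of the variable genes. No doublets were removed. Members and gene lists were chosen with earlier results of these data known.

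Sums, exact Poisson and binomial intervals at 95%, and exact conditional intervals of ratios were computed in Python 3.11.15 with scipy 1.17.1, and were tested on simulated data. They cover counting error only. All 10 members are named, listed genes where they reached 50 CPM in a named class (*Ccr3* was named below it, after its values were seen), and the 3 genes closest to each member among those with at least 200 UMIs. Profiles were compared as log2(CPM + 1). Protein identity came from global alignments (BLOSUM62, gap open 10, extend 0.5) of translated GENCODE coding sequences. Scrublet ran in scanpy 1.11.5.

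Alternatives changed 1 choice at a time: a stricter filter (1000 UMIs, 500 genes, under 10% mitochondrial), a resolution of 1.0, 30 components, the members kept among the variable genes, removal of the 6% highest doublet scores, scaling by the median ratio, equal weight per cell, equal numbers of cells per class in both libraries for shares of UMIs, thinning to 2000 UMIs, removal of the 5 cells with most of a member, and 20 or 500 UMIs for a call. Some items are not reported here.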

Additional observations from a re-analysis of the deposited data

Results flagged for a closer look

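Among the 13 classes of macrophage-, monocyte-, neutrophil-, T- and NK-like cells and tumor cells, the ratio of BUP over UT lay at least 1.5-fold on opposite sides of 1 in different classes for 6 members. Each is given here with its highest and lowest log2 ratio among those classes. Classes outside them could lie farther out, such as migratory dendritic-like cells for *Ccl2*, at 2.94, and mast-like cells for *Ccl6*, at -3.38. These differences between classes were not tested, since each condition has 1 library. For *Ccl2* they were 1.11 in cycling CD8 T-like and -1.34 in neutrophil-like cells. For *Ccl3* they were 0.96 in cycling tumor and -1.21 in CD8 T-like cells. For *Ccl4* they were 1.11 in cycling CD8 T-like and -0.70 in NK-like cells, both above 200 CPM. Over the settings tried these ranged from 0.96 to 1.35 and from -1.23 to -0.29. For *Ccl5* they were 2.19 in *Nppb* and *Esm1* and -1.44 in *Ogn* and *Aspn* tumor cells, from levels of at most 20.7 CPM. For *Ccl6* they were 0.74 in *Il17a* and *Foxp3* T-like and -2.04 in *Nppb* and *Esm1* cells. For *Ccl9* they were 1.07 in cycling CD8 T-like and -0.87 in *Nppb* and *Esm1* cells.

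Few cells carried several of these values. In BUP cycling CD8 T-like cells 5 cells held 72.5% of the *Ccl2* UMIs and 65.1% of the *Ccl9* UMIs, and in the BUP cycling tumor cluster 5 cells held 80.3% of the *Ccl3* UMIs. For *Ccl4* the 5 cells held 22.5% in BUP cycling CD8 T-like cells and 49.6% in BUP NK-like cells.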

How the results depend on the processing

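Of 116 log2 ratios, 54 were at least 1.5-fold, and 39 of these kept their sign in every alternative. No paired analysis was possible because each condition has 1 library. Depth and the number of cells limit the lymphocyte and tumor values of macrophage members, which rest on few UMIs in few cells, and the cause of each change below was not tested beyond what the setting itself removes.

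With 30 components the sign turned for *Ccl12* in *Ogn* and *Aspn* cells (-1.39 to 0.62), for *Ccl2* (-0.79 to 0.0624) and *Ccl7* (-1.26 to 0.24) in CD8 T-like cells, and for *Ccl3* (0.69 to -0.44) and *Ccl6* (0.74 to -0.94) in *Il17a* and *Foxp3* T-like cells. *Ccl12* in *Ogn* and *Aspn* cells was at 0.60 with the members kept among the variable genes and 0.59 at a resolution of 1.0. *Ccl3* in *Il17a* and *Foxp3* T-like cells was at -1.07 thinned and under the stricter filter, -0.0206 with equal weight per cell and -0.69 without 5 cells. *Ccl6* in cycling CD8 T-like cells, at 0.62, was at -0.38 thinned, -0.15 with equal weight, -0.31 without 5 cells and -1.05 without high doublet scores. *Ccl3* in cycling tumor cells, at 0.96, was at -0.16 thinned and -0.0414 without 5 cells.

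Without the 5 cells of each library with most of a member, *Ccl2* in cycling CD8 T-like cells was at -0.32, *Ccl24* at -0.0901 in cycling *C1q* and -3.11 in cycling tumor cells, *Ccl4* in cycling tumor cells at -0.21, *Ccl5* in *Ogn* and *Aspn* cells at 0.38 and *Ccl6* in *Il17a* and *Foxp3* T-like cells at -1.53. Without high doublet scores, *Ccl2* and *Ccl9* in cycling CD8 T-like cells were at -0.37 and -0.11, *Ccl24* in *Ogn* and *Aspn* cells at -0.29, *Ccl4* in cycling tumor cells at -0.65, and *Ccl5* at -0.61 in *Nppb* and *Esm1* and 1.24 in *Ogn* and *Aspn* cells.

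The number of members at least 1.5-fold lower in BUP in CD8 T-like cells was 3 with 30 components, 1 thinned and 1 at 500 UMIs. In NK-like cells it was 2 thinned, 2 at 500 UMIs and 8 without high doublet scores, and 1 member was higher at 20 UMIs. In neutrophil-like cells it was 1 thinned and 0 at 500 UMIs. In *Ogn* and *Aspn* cells it was 1 with 30 components, 3 thinned, 2 with the members kept, 2 at a resolution of 1.0, 3 without 5 cells and 3 without high doublet scores, and the number higher was 2 with 30 components, with the members kept and at a resolution of 1.0, and 0 thinned or without high doublet scores. In *Cxcl3* and *Thbs1* macrophages the number lower was 0 with 30 components and with the members kept. In *C1q* macrophages it was 1 with the members kept and without 5 cells.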
